A study of Homo sapiens with 12 samples.

Results

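Of 9958 regions in a table of m7G peaks from THP-1 cells, 423 (4.25%) held reads in the control input and few in the knockdown input. The regions were chosen by their input reads: a region was taken when its reads in the 3 NC input libraries summed to at least 20 and to at least 4 times the sum in the 3 KD input libraries, on raw counts. Among the 4180 regions with at least 20 NC input reads, the 423 made up 10.1%. The libraries came from THP-1, a human monocytic leukemia line, made adherent with PMA (a phorbol ester that drives monocytic cells towards macrophages) at 100 ng/ml for 48 h. KD cells carried a short hairpin against METTL1, and NC cells served as their control and are described by the submitters as wild type. RNA was polyadenylated, and each condition had 3 libraries of immunoprecipitated RNA (IP) and 3 of input. All 12 libraries therefore shared the line and the PMA treatment, and the knockdown rested on cells named for 1 hairpin target, with no second hairpin or rescue among these samples. The labels do not say whether libraries of a group came from separate cultures, so the p-values measure the spread between these libraries, which may be technical.

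7-methylguanosine (m7G) is the modified base of the mRNA cap, and it also occurs in tRNA and at internal positions of mRNA. METTL1, together with WDR4, deposits m7G in tRNA and at some internal mRNA sites. In meRIP-seq, fragmented RNA is pulled down with an antibody against the modification, and the input, which is not pulled down, follows the amount of each transcript. Monocytic cells are known for genes such as SPI1, CD68, CYBB and LAPTM5, whereas neurofilaments mark neurons and desmosomal proteins mark epithelia. HOX factors encode position along the body axis.

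Of the 423 regions, 14 regions in 10 genes began at the first base of a RefSeq transcript. The 250 bases before that start are printed for 6 of the genes, because these regions hold the beginning of the RNA and show both kinds of region described below. POU3F2, LARP6, STC2, CNTNAP1 and BEX4 were lower in the KD IP, and FXR2 was not called. The sequences are those of RefSeq on GRCh38.p14, written 5′ to 3′ on the gene's strand: POU3F2 at chr6:98834324-98834573 (plus strand), LARP6 at chr15:70854158-70854407 (minus), STC2 at chr5:173328415-173328664 (minus), CNTNAP1 at chr17:42682281-42682530 (plus), BEX4 at chrX:103214858-103215107 (plus) and FXR2 at chr17:7614898-7615147 (minus). Capitals mark matches, on either strand, to any of the motifs listed after the sequences, and neighbouring matches join.
POU3F2: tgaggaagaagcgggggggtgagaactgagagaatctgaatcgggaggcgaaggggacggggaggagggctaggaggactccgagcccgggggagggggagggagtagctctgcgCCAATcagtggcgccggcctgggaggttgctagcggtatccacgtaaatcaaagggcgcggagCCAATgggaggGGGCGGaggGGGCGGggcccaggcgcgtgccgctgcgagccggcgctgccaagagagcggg
LARP6: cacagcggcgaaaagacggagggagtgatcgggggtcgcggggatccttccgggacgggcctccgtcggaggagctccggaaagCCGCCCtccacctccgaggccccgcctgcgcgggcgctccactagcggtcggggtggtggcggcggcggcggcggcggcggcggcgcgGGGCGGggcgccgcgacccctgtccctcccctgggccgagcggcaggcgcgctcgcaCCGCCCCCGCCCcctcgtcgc
STC2: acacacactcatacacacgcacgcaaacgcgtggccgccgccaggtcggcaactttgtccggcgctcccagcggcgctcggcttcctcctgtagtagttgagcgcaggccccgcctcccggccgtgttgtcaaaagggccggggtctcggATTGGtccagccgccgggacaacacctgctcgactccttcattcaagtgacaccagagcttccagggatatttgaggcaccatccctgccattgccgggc
CNTNAP1: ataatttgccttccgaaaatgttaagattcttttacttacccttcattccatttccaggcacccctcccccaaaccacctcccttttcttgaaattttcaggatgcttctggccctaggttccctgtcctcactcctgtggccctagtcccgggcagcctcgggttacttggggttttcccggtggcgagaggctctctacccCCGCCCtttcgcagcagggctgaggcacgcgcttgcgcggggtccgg
BEX4: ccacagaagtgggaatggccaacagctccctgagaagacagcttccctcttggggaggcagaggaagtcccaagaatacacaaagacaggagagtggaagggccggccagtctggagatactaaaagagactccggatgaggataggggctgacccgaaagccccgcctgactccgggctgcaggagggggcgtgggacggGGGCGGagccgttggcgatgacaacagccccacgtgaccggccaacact
FXR2: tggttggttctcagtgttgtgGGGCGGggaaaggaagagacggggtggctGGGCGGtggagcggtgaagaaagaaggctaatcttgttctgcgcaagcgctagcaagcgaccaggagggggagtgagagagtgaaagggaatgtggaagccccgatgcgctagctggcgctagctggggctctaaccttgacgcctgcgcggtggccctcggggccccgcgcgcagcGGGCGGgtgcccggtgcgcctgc

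The motifs searched were the GC box (GGGCGG), the CCAAT box (CCAAT), the TATA box (TATAAA), 2 spellings of an E2F site (TTTCCCGC and TTTGGCGC) and the CHR element (TTTGAA). In the windows shown, GGGCGG occurred 4 times before LARP6, 3 times before FXR2, 2 times before POU3F2 and once before CNTNAP1 and BEX4. CCAAT occurred 2 times before POU3F2 and once before STC2, and no other motif of the list was present in the 6 windows. GGGCGG stood in the same window of 75.6% of 127 genes with a member region lower in the KD IP, in 70.1% of 117 other member genes, and in 70% of 3987 genes with any region, against 42.2% of all 27305 promoters. Only genes with a full-length window were searched, so the 127 and 117 fall short of the 304 genes that members in 1 coding gene named. The 117 include genes without a call and genes not tested in IP. TTTCCCGC stood in 9 of the 127 genes (7.09%) and in 1 of the 117 (0.855%), against 2.26% of genes with any region and 1.42% of all promoters. CCAAT was found in 34.6% of the 127, 40.2% of the 117, 35.3% of genes with any region and 33% of all promoters. TATAAA was found in 1.57% of the 127 and 4.27% of the 117, against 4.69% of genes with any region and 11.2% of all promoters. TTTGAA was found in 11% and 11.1% of the same 2 sets, in 7.45% of genes with any region and in 13.6% of all promoters. TTTGGCGC stood in 1 of the 127, in none of the 117 and in 0.542% of all promoters. These shares are descriptions of letters in a window and were not tested.

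The POU3F2 region starts at chr6:98834574 and ends at 98834904, and POU3F2 encodes a POU-domain transcription factor of the developing nervous system. It held 0, 0 and 0 reads in the KD input libraries and 22, 4 and 24 in the NC input libraries. In IP it held 0, 2 and 7 reads in KD libraries and 140, 115 and 121 in NC libraries. LARP6, an RNA-binding protein of collagen mRNAs, had a region overlapping LRRC49 as well, with 11, 7 and 2 reads in KD input libraries and 207, 114 and 122 in NC input libraries. STC2, a secreted glycoprotein, held 22, 24 and 29 reads in KD input libraries and 123, 84 and 107 in NC input libraries. CNTNAP1, an adhesion protein of myelinated axons, held 16, 9 and 1 reads in KD input libraries and 36, 45 and 49 in NC input libraries. Its reads were listed almost unchanged for overlapping regions on the plus and the minus strand, so the strand of these reads cannot be told. FXR2, an RNA-binding protein related to FMRP, had a region that also overlaps SHBG, with 0 reads in each KD input library and 4, 18 and 11 in the NC input libraries. In IP the FXR2 region held 48, 50 and 27 reads in KD libraries and 87, 49 and 45 in NC libraries, and these ranges overlap. POU3F2, LARP6, STC2, CNTNAP1 and FXR2 were chosen for this paragraph after their values were seen.

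Reads in regions summed to between 907024 and 1105477 per input library and between 1476384 and 1888972 per IP library, and these sums cover peak regions only. Across regions, log2 CPM (reads scaled to a common region total) correlated at 0.931 to 0.947 between libraries of an input group and at 0.971 to 0.979 within an IP group. No region overlapped METTL1 or the 5 other genes of a list of m7G methyltransferases and cofactors, so the knockdown itself was not measured. Markers of the labelled cell type were present in both conditions: SPI1, the myeloid master transcription factor, held 66, 103 and 63 reads in KD input libraries and 51, 37 and 56 in NC input libraries. LAPTM5, a lysosomal membrane protein of leukocytes, held 766, 784 and 679 reads in KD input libraries and 373, 333 and 298 in NC input libraries. In addition, all 3 NC input libraries held markers that are not those of a monocytic line, and the KD input libraries held some of them too. MAP1B, of the neuronal list, had 608, 620 and 517 reads in KD input libraries and 759, 625 and 714 in NC input libraries. IRX3, of the list of developmental transcription factors, had 273, 202 and 142 reads in KD input libraries and 102, 78 and 128 in NC input libraries. The summed level of 11 genes with regions, out of 18 listed for HEK293 (a human embryonic kidney line that expresses neurofilament genes), was 324 to 349 CPM in KD input libraries and 8746 to 9565 CPM in NC input libraries. NEFM alone had a mean of 5483 CPM in the NC input and 1.59 CPM in the KD input. NEFH of the same list was higher in KD, with 296 CPM in the KD input and 137 CPM in the NC input. The rule chose regions of 8 of the 11 genes by these input reads. Whether RNA of other cells takes part in the differences below was not tested, and in bulk RNA fewer cells of a type and less RNA per cell cannot be told apart.

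**Figure D1:**
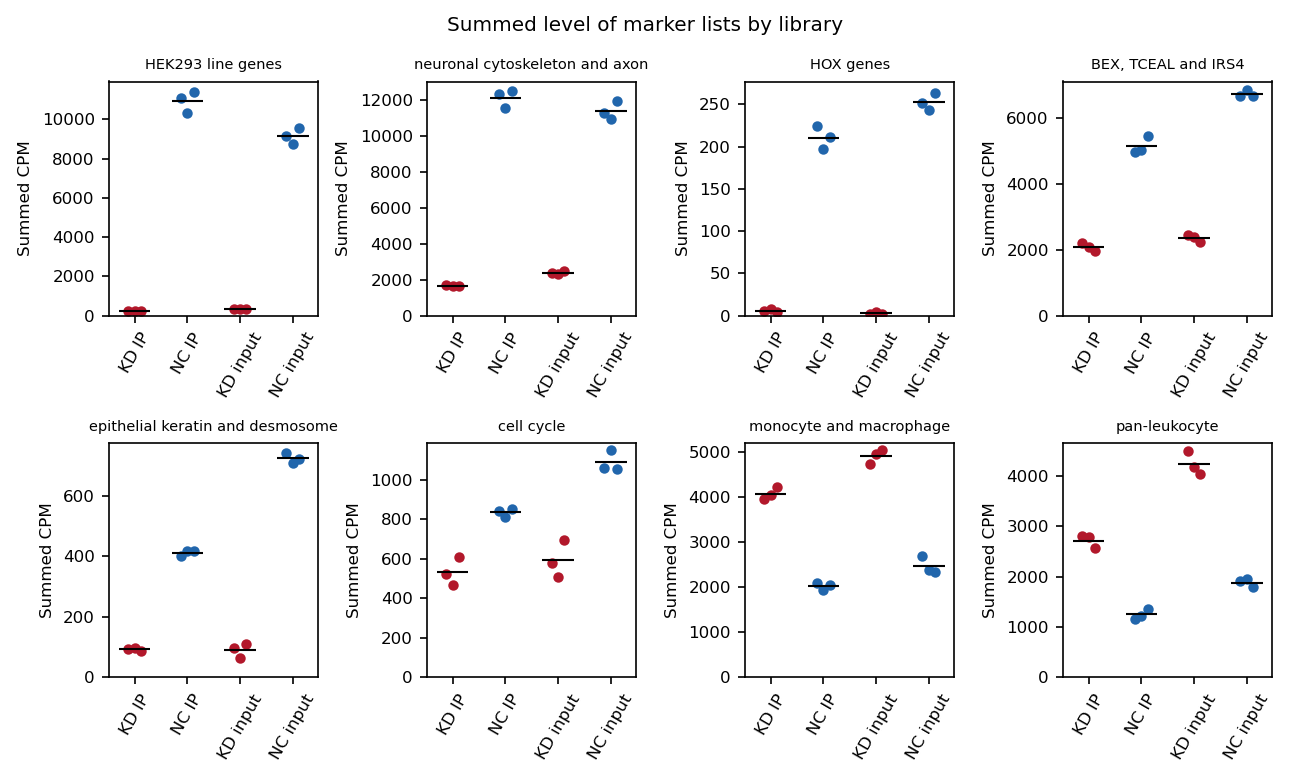
Summed scaled counts (CPM) of the regions of 8 marker lists in each library, with KD libraries in red, NC libraries in blue and the mean as a bar. The HEK293, neuronal, HOX, BEX, epithelial and cell cycle lists are lower in every KD library, whereas the monocyte and pan-leukocyte lists are higher in every KD library. The 8 are a choice from 19 lists. Among those not drawn, the list of developmental factors outside the HOX clusters and the matrix list were higher in every KD library. The actin list was lower in every KD library, and the signalling list overlapped between KD and NC.

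The values in this paragraph were used by the rule and carry no test. Per region, the summed KD input reads had a median of 3 (0 to 3146) and the NC input reads a median of 40 (20 to 14330). In the KD input, 77 regions had no read, 144 had 1 to 3 and 202 had more. In the NC input, 410 of the 423 had reads in all 3 libraries and 138 had only 20 to 29 reads in all. The 423 regions held 0.33% of KD input reads and 3.26% of NC input reads. At the threshold, 6 regions stood at exactly 4 times. Just inside stood DERL2/MIS12 with 17 KD and 68 NC reads, PAQR6 with 8 and 32, and NRBP1 with 5 and 20. Just outside stood MTURN with 205 KD and 806 NC reads, INO80E with 56 and 220, and USP5 with 8 and 31.

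By the names the authors gave, 309 of the 423 belonged to the KD peak set and 114 to the NC set, that is 6.17% of 5008 KD peaks and 2.3% of 4950 NC peaks. A peak of the KD set is a call of KD IP over KD input, so a low KD input favours such a call by construction. Many regions overlapped each other, and the 423 formed 377 separate stretches on a strand. Of the 423, 385 lay in 1 protein-coding gene, 35 in several, 1 in a long non-coding RNA and 2 in no gene. The 385 named 304 genes, 60 of which had at least 2 regions, and 6 regions lay on the strand opposite to their gene.

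The IP libraries were not used by the rule, although IP and input of a number may come from the same RNA. In IP the 423 regions held 0.488% of KD reads and 3.82% of NC reads. With edgeR's quasi-likelihood test on every region with a read and Benjamini-Hochberg adjustment at 0.05, 231 of all 423 were lower in KD IP than in NC IP (54.6%) and none was higher, against 11.1% lower over all 9958 regions. In the fit used for single regions below, a filter on low counts kept 324 of the 423, and 235 of these were lower, none was higher and 89 were not called. A region can pass that filter through the NC libraries alone, where the rule makes it high, so the share among the 324 is not read against the 20.1% lower and 20.9% higher of all 5113 regions in that fit. At an unadjusted p under 0.05 none of the 324 was higher either, and DESeq2 called none higher. Over all 423, the log2 ratio of mean KD IP CPM over mean NC IP CPM, with 0.5 CPM added, had a median of -1.81, against -0.03 over all regions. Without any filter, the 3 KD IP libraries all lay below the 3 NC IP libraries in 291 of 423 regions (68.8%) and all lay above them in 2. The same was true of 21.1% of all regions and of 30.1% of regions with at least 20 NC input reads for lower KD, and of 19% of all regions for higher KD.

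The counts are given next by peak set and by size of the NC input. All 3 KD IP libraries lay below all 3 NC IP libraries in 180 of the 309 KD-set regions (58.3%) and in 111 of the 114 NC-set regions (97.4%), against 15.3% of all KD-set regions and 27% of all NC-set regions. A peak is called from the IP of the condition it is named for, so the set fixes part of this direction and the split is a description. All 3 KD IP libraries lay below all 3 NC IP libraries in 37% of the 138 regions with 20 to 29 NC input reads, in 73.4% of the 169 with 30 to 99, in all 70 with 100 to 299 and in all 46 with 300 or more. Over all regions the shares in the same ranges were 21.9%, 28.4%, 28.3% and 36.9%. The KD IP level was under 0.25 of the NC IP level in 195 regions and at least 0.5 of it in 119, and 115 of those 119 belonged to the KD set. The group thus held regions that were low in both KD input and KD IP, and regions with few reads whose IP levels were similar in both conditions.

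**Figure D2:**
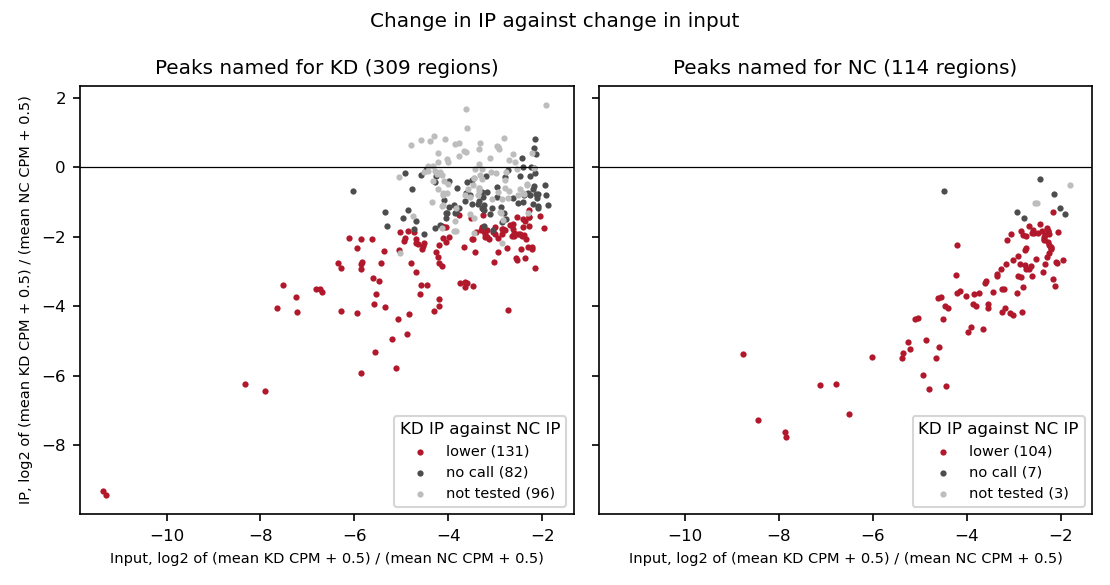
Log2 ratio of KD over NC in input (horizontal) and in IP (vertical) for each of the 423 regions, from group mean CPM with 0.5 added, with peaks named for KD on the left and for NC on the right. Red points were lower in KD IP (131 and 104), dark grey points had no call (82 and 7) and light grey points were not tested (96 and 3). The rule sets the horizontal range, and only KD-set points lie at or above 0 on the vertical axis.

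**Figure D3:**
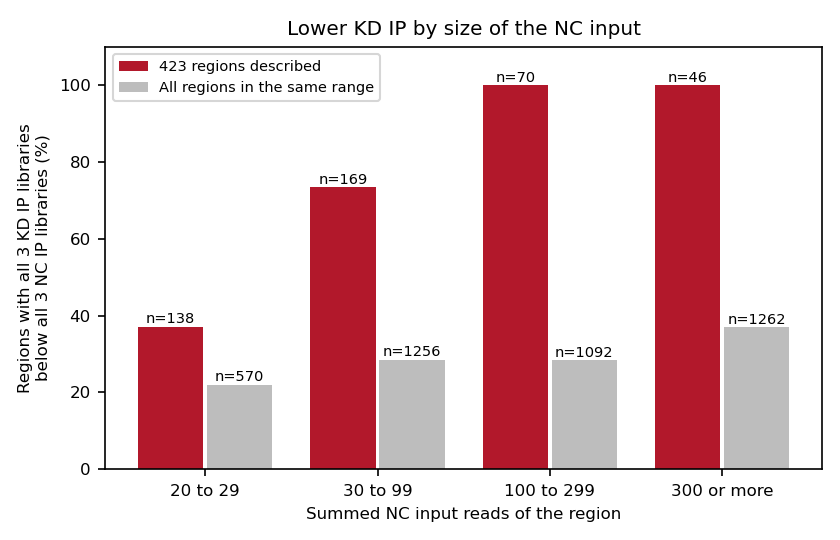
Share of regions whose 3 KD IP libraries all lay below the 3 NC IP libraries, by summed NC input reads, for the 423 regions (red) and for all regions in the same range (grey). The red bars reach 100% from 100 NC input reads upward, against 28.3% and 36.9% of all regions.

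Neuronal cytoskeleton genes included NEFM, the member region with the most NC input reads. NEFM, the medium neurofilament subunit, lies on chromosome 8 and had 0, 5 and 0 reads in KD input libraries and 5209, 4184 and 4937 in NC input libraries. In IP, NEFM had 16, 13 and 15 reads in KD libraries and 10483, 8206 and 9246 in NC libraries, a log2 change of -9.40 ± 0.20 (SE, adjusted p = 4.6e-22 by edgeR). NEFL, the light neurofilament subunit, had 0, 0 and 6 reads in KD input libraries and 616, 395 and 634 in NC input libraries, and its IP change was -7.90 ± 0.32 on the log2 scale (adjusted p = 9e-16). No KD library of either gene came near any NC library. MAP9, a microtubule-associated protein, had no KD input read and 110, 85 and 115 reads in NC input libraries, which is at least 117-fold lower in KD, taking 3 counts over the 3 libraries as the most that a count of 0 allows. In IP MAP9 had 0, 1 and 2 reads in KD libraries and 200, 131 and 146 in NC libraries, a ratio of NC over KD of 172 (95% counting interval 58.5 to 837, adjusted p = 6.5e-12). The log2 change of MAP9 was -7.19, and -8.05 without KD IP 3. KIF1A, the kinesin that carries synaptic vesicle precursors, had 1, 4 and 1 IP reads in KD libraries and 132, 117 and 102 in NC libraries (log2 -5.87 ± 0.46, and -6.69 without KD IP 2). TUBB2B, a beta-tubulin of developing neurons, had 1 KD IP read in all and 266 NC IP reads, a ratio of NC over KD of 288 with an interval of 51.2 to 11403. The log2 change of TUBB2B was -7.57, and -9.07 without KD IP 2, which held its only KD read. PNMA8A, of the paraneoplastic antigen family, had 4, 2 and 2 IP reads in KD libraries and 42, 32 and 28 in NC libraries. MAP1A, which binds microtubules in neurons, was low in KD input alone: it had 11, 6 and 6 IP reads in KD libraries and 7, 12 and 6 in NC libraries, and these overlap.

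Of the 40 genes of the neuronal list, 20 had regions and 7 of those were members, with 7 of 8 member regions lower in KD IP. The rule chose member regions by input, and the filter can keep them through the NC libraries alone. Counts among member regions, here and in the lists below, are therefore descriptions. Over the whole list, 8 of 20 tested regions were lower and 2 higher, beside 20.1% and 20.9% of all tested regions, with a median log2 change of -0.16, against 0.05 over all tested regions. NEFH, the heavy neurofilament subunit, is not a member and went the other way, with 367, 402 and 344 IP reads in KD libraries and 165, 144 and 128 in NC libraries (log2 1.24 ± 0.14, adjusted p = 6.3e-08). CACNG8, an auxiliary subunit of AMPA receptors named after its values were seen, had 6 separate or overlapping member regions beside its main one, which held 14, 17 and 16 IP reads in KD libraries and 319, 348 and 283 in NC libraries. SV2A, a synaptic vesicle glycoprotein also named after the fact, had 4, 6 and 5 IP reads in KD libraries and 132, 133 and 141 in NC libraries.

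Genes known from HEK293 cells shared NEFM, NEFL and TUBB2B with the neuronal list. Of 11 such genes with regions, 8 were members (AKAP12, BEX2, IRS4, KRT18, LIN28B, NEFL, NEFM and TUBB2B). Of the list's 12 tested regions 10 were lower in KD IP and 2 higher, beside 20.1% and 20.9% of all tested regions, with a median log2 change of -6.18. Of the 10 lower regions, 9 were member regions. In IP the list summed to 232 to 246 CPM in KD libraries and 10338 to 11371 CPM in NC libraries. IRS4, an insulin receptor substrate with restricted expression, had 1, 0 and 0 reads in KD input libraries and 72, 37 and 90 in NC input libraries. In IP IRS4 had no read in any KD library and 117, 102 and 125 in NC libraries, which is at least 124-fold lower in KD (adjusted p = 2.3e-10). BEX2, a small X-linked protein of neural tissue, had 2, 1 and 1 IP reads in KD libraries and 507, 358 and 491 in NC libraries (log2 -8.35 ± 0.30, adjusted p = 1.1e-16). LIN28B, the RNA-binding protein that blocks let-7 maturation, had 4, 1 and 0 IP reads in KD libraries and 29, 20 and 40 in NC libraries (log2 -4.15 ± 0.67, and -5.58 without KD IP 1). IGF2BP3, an oncofetal mRNA-binding protein, had 1, 0 and 7 IP reads in KD libraries and 9, 7 and 8 in NC libraries and was not called (adjusted p = 0.12). Without KD IP 3, which holds 7 of its 8 KD reads, its change was -3.77 with an adjusted p of 0.0078. Of the 4 oncofetal genes with regions, LIN28B and IGF2BP3 were members. By edgeR 1 of 6 tested regions was lower and 2 were higher, beside the same shares of all tested regions, whereas DESeq2 called 1 lower and 0 higher. HMGA2, another oncofetal gene with a region, is not a member and had 217 summed IP reads in KD and 112 in NC (adjusted p = 0.091).

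BEX4, next to BEX2 on the X chromosome, had 13, 12 and 23 reads in KD input libraries and 111, 83 and 80 in NC input libraries, and its IP change was -2.86 ± 0.31 on the log2 scale (adjusted p = 4.9e-08). In the list of BEX, TCEAL and IRS4 genes, 11 of 12 tested regions were lower in KD IP, beside 20.1% of all tested regions. Of the 11 lower regions, 3 were member regions. None of the 12 was higher, either by DESeq2 or at an unadjusted p under 0.05 by edgeR. TCEAL4 and TCEAL9 were lower too without being members: TCEAL4's region with most reads had 5859 summed IP reads in KD and 14762 in NC.

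HOX genes, which encode positional identity along the body axis, were nearly absent from the KD libraries. Of 39 HOX genes, 7 had regions and 4 of these were members (HOXA7, HOXB6, HOXC8 and HOXC9). All 7 tested regions of the list were lower in KD IP, with a median log2 change of -3.95. Of the 7, 6 were member regions, chosen by their low KD input. The count is therefore a description and is not read against the 20.1% of all tested regions. These 7 regions lay in HOXA7, HOXB6, HOXC8, HOXC9 and HOXD13, and HOXC8 entered with overlapping regions that hold nearly the same reads. HOXB9 and HOXB13 were not tested. Summed over the list, the input level was 2.03 to 4.78 CPM in KD libraries and 243 to 264 CPM in NC libraries. HOXC8, at chr12:54011218-54011367, had no read in any KD input library and 148, 117 and 154 in NC input libraries. In IP HOXC8 had 2, 0 and 2 reads in KD libraries and 202, 146 and 145 in NC libraries (log2 -6.88 ± 0.39, adjusted p = 2.8e-12, and -6.28 without KD IP 2). HOXC9 had 5, 3 and 2 IP reads in KD libraries and 31, 26 and 45 in NC libraries, and HOXB6 had 3, 7 and 2 against 72, 37 and 56. HOXA7 had 1, 4 and 0 IP reads in KD libraries and 20, 24 and 32 in NC libraries (log2 -3.95 ± 0.77, and -5.32 without KD IP 2). For each of these 4 genes the highest KD IP library lay below the lowest NC IP library. HOXD13 is not a member, since its NC input sum was 10, and had 0, 1 and 1 IP reads in KD libraries and 87, 77 and 55 in NC libraries.

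Of a list of developmental transcription factors outside the HOX clusters, SALL2, SIX4 and FOXC1 were members. POU4F1, a factor of sensory neurons that is not in that list, had 2, 7 and 4 reads in KD input libraries and 120, 220 and 168 in NC input libraries. In IP POU4F1 had 15, 23 and 15 reads in KD libraries and 687, 783 and 603 in NC libraries (log2 -5.40 ± 0.27, adjusted p = 3.3e-14). SALL2, a zinc-finger factor, had 2, 4 and 5 IP reads in KD libraries and 212, 126 and 137 in NC libraries. SIX4, a homeobox factor of kidney and muscle development, had 3, 1 and 3 against 87, 67 and 69. FOXC1, a forkhead factor of mesoderm, had 0, 8 and 1 IP reads in KD libraries and 26, 29 and 31 in NC libraries (log2 -3.34 ± 0.75, and -5.48 without KD IP 2). Over the whole list, of 28 tested regions 6 were lower and 7 higher in KD IP, beside 20.1% and 20.9% of all tested regions, with a median of 0.05, the same as over all tested regions. Higher in KD IP were IRX3 (log2 0.83 ± 0.15), FOXD1 (0.78 ± 0.18) and TWIST1 (1.23 ± 0.34), which are not members. Their adjusted p-values by edgeR were 6.3e-05, 0.0014 and 0.005. MNX1, a motor neuron factor, and EN2, a hindbrain factor, were named after their values were seen. MNX1 had 36, 19 and 22 IP reads in KD libraries and 160, 94 and 99 in NC libraries, and EN2 had 25, 18 and 20 against 204, 152 and 104.

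**Figure D4:**
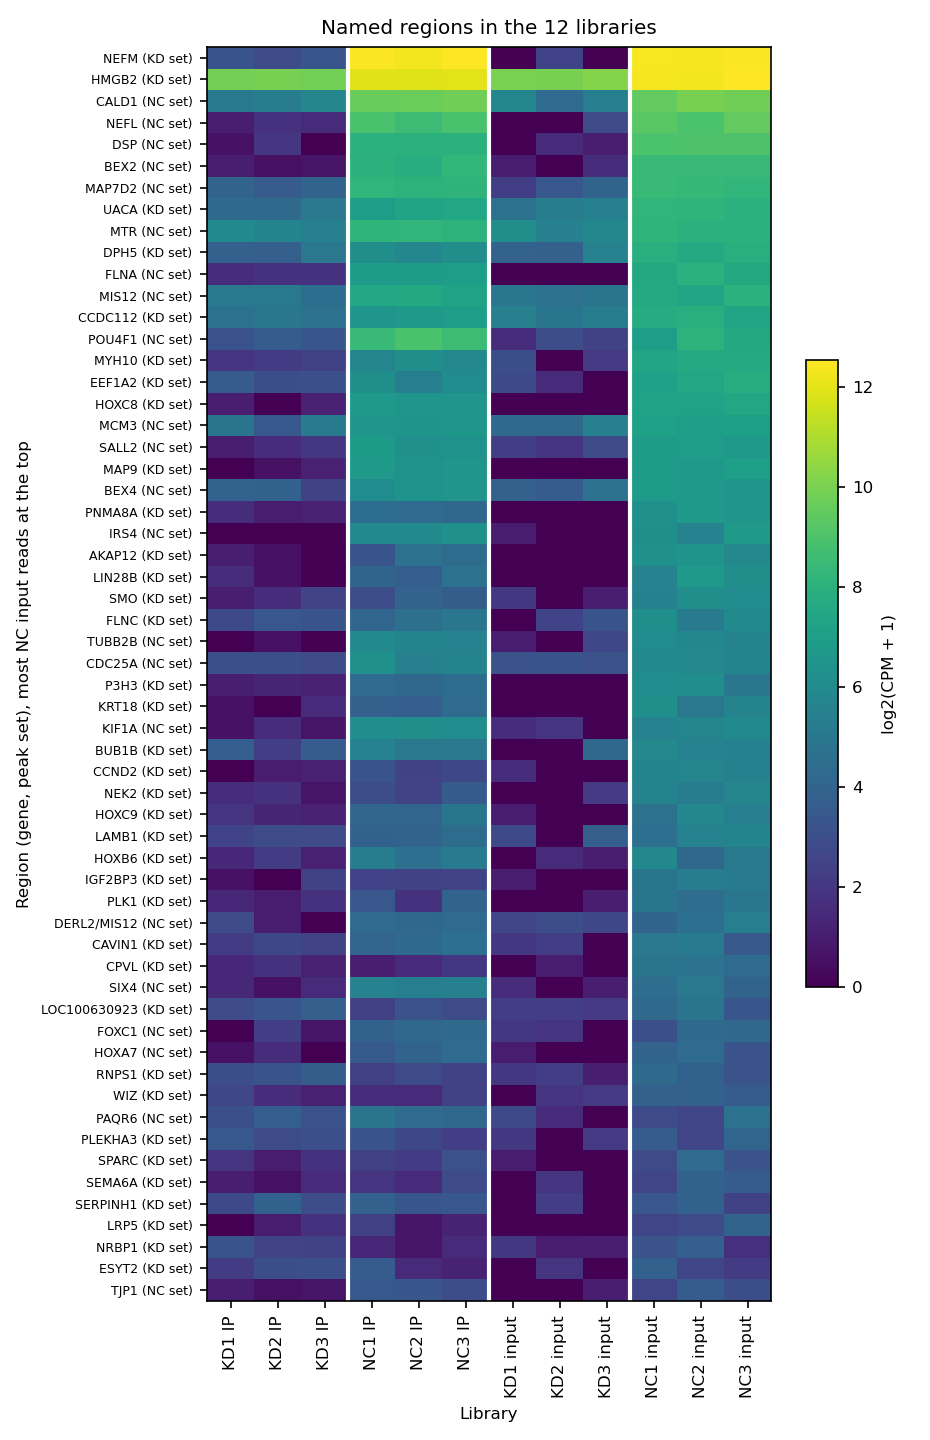
Log2(CPM + 1) of 58 of the 59 regions named by rule in each of the 12 libraries, ordered by summed NC input reads, with the peak set in brackets. Rows such as NEFM, DSP, BEX2, HOXC8 and IRS4 are dark in both KD IP and KD input, whereas CPVL, RNPS1, WIZ and NRBP1 near the foot have similar or higher values in KD IP than in NC IP.

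Genes of actin, adhesion and contraction gave the most regions of a list. Of 18 genes with regions, 6 were members with 17 regions, and 13 of the 14 tested member regions were lower in KD IP. The rule and the filter favour such a count among member regions, so it is a description. Over the whole list 13 of 27 tested regions were lower and 3 higher, beside 20.1% and 20.9% of all tested regions, with a median log2 change of -1.51. All 13 of the lower regions were member regions, so no tested region of the list outside the rule was lower. TPM4 and LIMA1 are not members and were higher in KD IP. Their log2 changes were 1.32 ± 0.21 and 0.70 ± 0.12 (adjusted p = 1.7e-05 and 5.2e-05 by edgeR). CALD1, or caldesmon, which binds actin and myosin, lies at chr7:134933043-134934032 in its region of most reads, with 53, 21 and 38 reads in KD input libraries and 704, 791 and 775 in NC input libraries. In IP CALD1 had 62, 75 and 81 reads in KD libraries and 1499, 1317 and 1427 in NC libraries (log2 -4.39 ± 0.19, adjusted p = 3e-15). FLNA, the actin crosslinker filamin A, at chrX:154364834-154365192, had no KD input read and 186, 206 and 169 reads in NC input libraries, at least 211-fold lower in KD. In IP FLNA had 4, 5 and 4 reads in KD libraries and 218, 189 and 195 in NC libraries. MYH10, a non-muscle myosin heavy chain, had 5, 7 and 7 IP reads in KD libraries and 97, 117 and 94 in NC libraries. AKAP12, a scaffold of protein kinase A, had 3 summed IP reads in KD and 88 in NC, a ratio of NC over KD of 31.7 (interval 10.5 to 157), and its log2 change of -4.80 became -5.59 without KD IP 1. CAVIN1, a coat protein of caveolae, had 7, 11 and 8 IP reads in KD libraries and 30, 30 and 37 in NC libraries. FLNC, the muscle filamin, changed by -1.51 ± 0.48 on the log2 scale (adjusted p = 0.013), but had an adjusted p of 0.062 without KD IP 1 and of 0.077 without NC IP 3. EEF1A2, the elongation factor of muscle and neurons, had 6, 2 and 0 reads in KD input libraries and 135, 140 and 195 in NC input libraries, and its IP change was -2.80 ± 0.33. LMOD1, a smooth muscle actin nucleator named after its values were seen, had 6, 3 and 4 IP reads in KD libraries and 345, 286 and 299 in NC libraries.

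Of the epithelial genes, DSP had the most reads. DSP, or desmoplakin, the plaque protein of desmosomes, at chr6:7579583-7579733, had 0, 2 and 1 reads in KD input libraries and 490, 413 and 460 in NC input libraries. In IP DSP had 1, 6 and 0 reads in KD libraries and 475, 419 and 418 in NC libraries (log2 -7.57 ± 0.30, adjusted p = 7.3e-16, and -9.40 without KD IP 2). KRT18, a keratin of simple epithelia, had 1, 0 and 3 IP reads in KD libraries and 25, 20 and 32 in NC libraries (log2 -4.21 ± 0.72, -3.61 without KD IP 2 and -5.44 without KD IP 3). TJP1, a tight junction scaffold, had 2, 1 and 1 IP reads in KD libraries and 19, 15 and 11 in NC libraries. In the epithelial list 4 of 6 genes with regions were members, and 5 of 8 tested regions were lower in KD IP and 1 higher, beside 20.1% and 20.9% of all tested regions. Of the 5 lower regions, 3 were member regions.

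Of the matrix and signalling genes, some were members. P3H3, a collagen prolyl hydroxylase, had no KD input read and 64, 56 and 25 in NC input libraries, and 2, 3 and 2 IP reads in KD libraries and 38, 28 and 33 in NC libraries (log2 -3.84 ± 0.57, adjusted p = 9.2e-06). LAMB1, a laminin chain whose member region lies on the opposite strand, was called (log2 -1.48 ± 0.56, adjusted p = 0.037), but its adjusted p was between 0.051 and 0.14 when any 1 of the 6 IP libraries was left out. LAMB1's region with most reads is not a member and was not called, with 54 summed IP reads in KD and 92 in NC (log2 -0.85 ± 0.41, adjusted p = 0.1 by edgeR). SERPINH1, the collagen chaperone, had 11, 28 and 11 IP reads in KD libraries and 25, 15 and 15 in NC libraries (adjusted p = 0.77). SPARC, a matrix glycoprotein, was not tested and had 5, 2 and 4 IP reads in KD libraries and 8, 6 and 12 in NC libraries. In the matrix list 2 of 17 tested regions were lower and 5 higher, beside 20.1% and 20.9% of all tested regions. SMO, the Hedgehog signal transducer, had 2, 4 and 8 IP reads in KD libraries and 13, 23 and 19 in NC libraries (log2 -2.05 ± 0.59, adjusted p = 0.0069, and -2.75 without KD IP 3). SEMA6A, a semaphorin, and LRP5, a Wnt co-receptor, were left out by the filter on low counts. Of 12 tested regions of the signalling list, 2 were lower and 6 higher, beside the same shares. FKBP10, a collagen-related peptidyl-prolyl isomerase named after its values were seen, had 0, 1 and 0 reads in KD input libraries and 155, 133 and 136 in NC input libraries.

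Cell cycle genes supplied 7 members of 20 genes with regions, and 8 of 9 member regions were lower in KD IP, a count that the rule and the filter favour. Over the list 11 of 19 tested regions were lower and 4 higher, beside 20.1% and 20.9% of all tested regions, with a median log2 change of -1.74. MCM3, a subunit of the replicative helicase, had 18, 20 and 39 reads in KD input libraries and 135, 98 and 121 in NC input libraries, and 52, 20 and 56 IP reads in KD libraries and 176, 142 and 159 in NC libraries. CDC25A, a phosphatase that activates cyclin-dependent kinases, had 14, 15 and 10 IP reads in KD libraries and 148, 70 and 75 in NC libraries (log2 -2.98 ± 0.33, adjusted p = 6.6e-08). CCND2, cyclin D2, had 0, 2 and 2 IP reads in KD libraries and 16, 7 and 9 in NC libraries. BUB1B, a spindle checkpoint kinase, had 23, 8 and 18 IP reads in KD libraries and 86, 50 and 49 in NC libraries (adjusted p = 0.0058 by edgeR and 0.15 by DESeq2). All 16 KD input reads of BUB1B came from the third KD library. NEK2, a centrosomal kinase, had an adjusted p of 0.019, but of 0.084 without KD IP 3 and 0.096 without NC IP 3. PLK1, the mitotic kinase, had an adjusted p of 0.0091, but of 0.053 without KD IP 2 and 0.089 without NC IP 3. CDK2's member region, low in KD input, had 13, 12 and 2 IP reads in KD libraries and 6, 15 and 24 in NC libraries. CDK2's region with most reads is not a member and was lower, with 377 summed IP reads in KD and 855 in NC (log2 -1.29 ± 0.24, adjusted p = 0.00011 by edgeR). CCND1, cyclin D1, is not a member and went the other way, with 769 summed IP reads in KD and 282 in NC (log2 1.35, adjusted p = 9.9e-07).

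Among the regions with most reads were also genes of general cell function. HMGB2, a chromatin protein of proliferating cells, at chr4:173332034-173332974, kept the most KD reads of all, with 1014, 1033 and 1099 in KD input libraries and 5059, 4046 and 5138 in NC input libraries. In IP HMGB2 had 1837, 2003 and 1525 reads in KD libraries and 7644, 6260 and 6646 in NC libraries (log2 -2.05 ± 0.10, adjusted p = 2.4e-14). MAP7D2, a microtubule-binding protein, had 28, 22 and 24 IP reads in KD libraries and 572, 443 and 447 in NC libraries. MTR, methionine synthase, had 119, 100 and 68 IP reads in KD libraries and 549, 493 and 432 in NC libraries, and UACA, an apoptosis-related protein, had 35, 38 and 51 against 241, 259 and 290. MIS12, a kinetochore protein, had 62, 65 and 36 IP reads in KD libraries and 328, 310 and 243 in NC libraries. A second region shared by DERL2 and MIS12 changed by -2.89 ± 0.65 on the log2 scale in IP, and by -4.91 without KD IP 1. CCDC112, a coiled-coil protein, and DPH5, an enzyme of diphthamide synthesis, changed by -1.98 ± 0.20 and -1.85 ± 0.32. In each of HMGB2, MAP7D2, MTR, UACA, MIS12, CCDC112 and DPH5, the 3 KD IP libraries lay below the 3 NC IP libraries.

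The other kind of region was low in KD input and not in KD IP. No member was called higher in KD IP, and the 5 genes with the highest log2 change were RNPS1, LOC100630923, PLEKHA3, ESYT2 and WIZ. RNPS1, a splicing-related protein, had 3, 4 and 1 reads in KD input libraries and 18, 11 and 7 in NC input libraries, and 13, 17 and 19 IP reads in KD libraries and 8, 10 and 7 in NC libraries (log2 0.86 ± 0.57, adjusted p = 0.25). LOC100630923 and PLEKHA3 changed by 0.60 ± 0.55 and 0.41 ± 0.62. ESYT2, a membrane-tethering protein, and WIZ, a zinc-finger protein, changed by 0.24 ± 0.77 and 0.06 ± 0.77. CPVL, a carboxypeptidase of macrophages and the only member of the monocyte list, had 0, 1 and 0 reads in KD input libraries and 26, 21 and 17 in NC input libraries, and 3, 5 and 2 IP reads in KD libraries and 2, 3 and 5 in NC libraries (log2 -0.13 ± 0.80, adjusted p = 0.91). NRBP1, an adaptor protein, was left out by the filter on low counts, with 16, 10 and 7 IP reads in KD libraries and 3, 1 and 3 in NC libraries, where all KD libraries lay above all NC libraries.

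Other regions of the same genes were set beside the members. For 45 of the member genes the table held 54 other regions that overlapped no member, and their KD over NC input ratio had a median of 0.331 where the member was lower in KD IP (18 regions), 0.451 where it had no call (17) and 0.664 where it was not tested (19), against 1 over all regions with at least 20 reads in either input. The rule itself used these input reads and takes out regions past its threshold, so regions lost as fully as the members cannot be among the 54, and the medians are a description cut off at that end. CHD4, a chromatin remodeller, had 4 KD and 21 NC input reads in its member region, but 7202 KD and 7943 NC input reads in another. ERP29, a chaperone of the endoplasmic reticulum, had 1 KD and 21 NC input reads in its member region, against 2864 KD and 4303 NC reads in another. NRBP1 had 3140 KD and 1758 NC input reads in another region. SERBP1, an mRNA-binding protein, was lower in KD elsewhere too, with 5392 KD and 11798 NC input reads. CHD4, ERP29 and SERBP1 were picked for this comparison after their values were seen.

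Of the 2 leukocyte lists, only CPVL had a member region. Members were 0 of 23 pan-leukocyte regions and 1 of 38 monocyte regions, beside 4.25% of all regions. With so few regions these counts lie near that share. Of 20 tested regions in the 9 pan-leukocyte genes with regions, none was lower in KD IP and 17 were higher, beside 20.1% and 20.9% of all tested regions. In both leukocyte lists no region was lower at an unadjusted p under 0.05 by edgeR, or by DESeq2. Among 19 monocyte and macrophage genes with regions, none of 30 tested regions was lower and 21 were higher, beside 20.1% and 20.9% of all tested regions. The pan-leukocyte list summed to 4043 to 4491 CPM in KD input libraries and 1788 to 1948 CPM in NC input libraries, and the monocyte list to 4721 to 5039 CPM in KD input libraries and 2329 to 2688 CPM in NC input libraries. FERMT3, which activates integrins in blood cells, had 741, 847 and 605 IP reads in KD libraries and 294, 255 and 284 in NC libraries (log2 1.27 ± 0.11, adjusted p = 1.2e-09). CYBB, the phagocyte NADPH oxidase subunit, had 491, 651 and 636 IP reads in KD libraries and 303, 220 and 270 in NC libraries (log2 1.07 ± 0.16). CD68, a lysosomal protein of macrophages, had 217, 233 and 153 IP reads in KD libraries and 125, 123 and 160 in NC libraries and was not called (adjusted p = 0.16). The erythroid and hepatocyte lists had no region, and the 2 lymphoid genes with regions summed to at most 1.09 CPM in a KD input library and 4.62 CPM in an NC input library. Of 6 endothelial and 5 striated muscle regions, 2 each were tested, with 1 endothelial region higher and 1 muscle region lower in KD IP.

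Within the gene body, the 385 regions in 1 coding gene lay in the first 10% of its length in 20.8% (95% Wilson interval 17 to 25.1), against 33.4% of all regions and 38.7% of regions with at least 20 NC input reads. In the last 10% lay 33% (28.5 to 37.8), against 28.4% of all regions and 21.7% of regions with at least 20 NC input reads. Both ends together held 53.8% (48.8 to 58.7) of these, against 61.9% of all regions and 60.4% of regions with at least 20 NC input reads. The shares were 54.3% in the KD set and 52.4% in the NC set. Median length was 182 bases, as it was over all regions. The NC input level per length had a median of 103 CPM per kb, against 209 over regions with at least 20 NC input reads, and 115 of the 423 lay in the upper part above that median. NC IP over NC input had a median log2 value of -0.58, against -0.20 over regions with at least 20 NC input reads, with -1.08 in the KD set and 0.15 in the NC set. Because the NC input was part of the rule, this ratio was not tested. By chromosome, the regions made up 8.92% of those on chromosome 13 (14 of 157), 7.79% of those on X (25 of 321) and 2.92% of those on chromosome 19 (28 of 960).

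**Figure D5:**
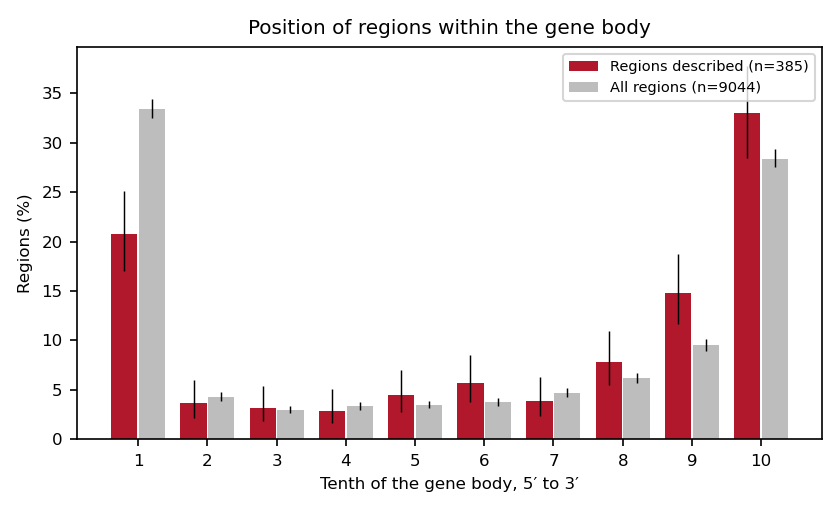
Percentage of regions in each 10% step of the gene body, 5′ to 3′, for the 385 regions in 1 coding gene (red) and for all regions in 1 coding gene (grey), with 95% Wilson intervals that cover counting error only. Both groups peak in the first and last step, at 20.8% and 33% for the regions described.

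The authors' deposited table also lists its own test of the change in enrichment, IP over input, between KD and NC. Of its 78 calls, 26 lie in these regions, and all 26 are given there as higher in KD, of 35 such calls in all. In 9 of the 26 the KD input has no read. The KD input is the denominator of that enrichment and was used by the rule, so the direction of these calls is a description. The authors' deposited fold enrichment had a median of 11.1 for the KD-set regions and 3.5 for the NC-set regions described here, against 9.56 and 8.59 over all peaks of each set.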

How the data were processed

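The study measured m7G meRIP-seq in 12 libraries of PMA-treated THP-1 cells. Groups (KD IP, NC IP, KD input and NC input, 3 libraries each) were taken from the library titles, with IN read as input. The submitters' processing notes name fastp 0.23.4 for trimming and GRCh38 as the build. For alignment, peak calling and counting, the tools are not given in the sources used here. The authors deposited whole-number read counts per region and library, a fold enrichment (a ratio of IP over input) with a score equal to it, p-values and adjusted p-values of the peak calls, a log2 change in enrichment with its p-values, and a length in bases. Region starts are printed counting from 1, because in the file 249 plus-strand starts fell 1 base before a RefSeq start and 3 at one.

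Regions were named by overlap of at least 1 base with RefSeq gene bodies, on either strand. The deposited counts entered a fit by edgeR 4.0.16 (R 4.3.3) over all 12 libraries (4 group means, filterByExpr with minimum count 10 and minimum total 15, TMM scaling, glmQLFTest, two-sided), and p-values were adjusted over 5113 regions. The input contrast was not tested, since it chose the regions. CPM used TMM-scaled region totals, a pseudocount of 0.5 CPM entered ratios where stated, and folds against 0 reads used a floor of 3 counts over the group. The labels record no molecular identifiers, so such intervals and floors describe counting error alone. Simulated data with 4-fold and 2-fold changes in IP gave back 85% and 54% of 100 changed regions each among 4791 regions.

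The regions, 19 gene lists and comparisons were chosen with earlier results of these data known. Named regions were the 15 genes with most NC input reads, up to 6 member genes per list, the 5 highest log2 IP changes and 3 regions on each side of the ratio threshold, of which 1 region is not reported here. Same-numbered KD and NC IP libraries deviated from their group means with correlations of -0.0877 to 0.0535, so the numbers do not pair them. Alternatives were DESeq2 1.42.0, other scaling, filters, thresholds, a replicate block, leaving out libraries and 1 region per overlapping stretch. Promoter sequences came from RefSeq (GRCh38.p14), and no genome sequence was used here.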

Additional observations from a re-analysis of the deposited data

How the results depend on the processing

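The number of regions that met the rule was 794 with a ratio of at least 2, 806 with at least 10 NC input reads and 184 with at least 50, and 311 to 350 when 1 library number was left out. Of the 423 themselves, 274 to 299 still met the rule when 1 library number was left out. The number lower in KD IP was 474 of 681 tested with the ratio of at least 2 and 151 of 207 with the ratio of at least 8, 214 to 223 when 1 IP library was left out, and 226 with a replicate block in the fit of 4 groups and 238 with a replicate block on IP alone, against 235. Without a filter it was 231 of 423, with at least 50 reads 240 of 377, and with DESeq2 248 of 423. The first and last 20% of the gene body held 72.2% of regions. The median log2 NC IP over NC input was -0.29 with library size alone and -0.75 with 1 region per overlapping stretch, and -0.64 to -0.54 when 1 number was left out, all 3 alternatives being added after the data had been seen, and the cause was not tested. Of single-region changes in IP, 8 reversed and none of them was called: CPVL at 0.05 without KD IP 3 and 0.30 without NC IP 3 (-0.45 to 0.30 over single libraries left out), WIZ at -0.73 without KD IP 1, -0.12 without NC IP 1, -0.15 without NC IP 2 and -0.03 with DESeq2 (-0.73 to 0.51 over single libraries left out), and ESYT2 at -0.13 without NC IP 2 and -0.19 without NC IP 3 (-0.19 to 0.49 over single libraries left out). Of the other comparisons of named regions with an alternative, 718 kept direction and side of the threshold, 13 lost the call and 3 gained it, among them PAQR6 with IP libraries alone. The replicate block changed no other named call than that of PAQR6, on IP alone. Regions with few reads limit what can be seen: the filter on low counts left out 99 of the 423. The fit found 54% of simulated 2-fold changes. Those changes were placed at random among all regions that passed the filter, so the share for these 423 regions was not measured.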
